A study of Mus musculus with 8 samples.

Results

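Semaphorins are guidance ligands, plexins are their receptors and neuropilins are co-receptors that hold ligand and plexin together. In the deposited table, 31 genes of this family were present among 48526 gene identifiers, namely 20 semaphorins, 9 plexins and 2 neuropilins. Members were the protein-coding genes whose GRCm38 symbol begins with Sema or Plxn followed by the letter or number of a class, with *Nrp1* and *Nrp2* added, and other names such as *Plxdc1* and *Plxdc2* were left out. The heart field of 4 embryos, L29-3, L43-5, L46-8 and L49-3, had been dissected between the headfolds and the second somite, without the heart and the back, and cut at the midline, so that each embryo gave a left and a right library of polyA RNA. All 8 libraries came from wild-type male embryos of the strain C57bl6/J at stage E8.5f, with no allele or agent in any of them, and the labels of the 2 groups differ in the side alone. The comparison asks which genes differ between the sides in heart precursors of single embryos. The tissue was not sorted, and in such bulk samples fewer cells of a type and less RNA per cell cannot be told apart.

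Class 3 semaphorins are secreted and mostly reach plexins through a neuropilin, whereas the other vertebrate classes are anchored in the membrane and bind plexins directly. A bound plexin acts through the GTPase activating domain of its tail on small Ras and Rap proteins, which loosens adhesion to the matrix and reshapes the actin cytoskeleton. In the developing heart and its vessels the family is known for septation of the outflow tract, for the path of cardiac neural crest cells and for the patterning of endothelial sprouts, and neuropilins also bind VEGF.

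Total counts lay between 1147446 and 3520753, the median library having 1916167, and both libraries of L49-3 were the smallest. Of the family, 24 members (14 semaphorins, 8 plexins and 2 neuropilins) reached a DESeq2-normalized count, that is reads divided by the size factor of the library, of at least 20 in at least 4 libraries, as did 9744 genes in all. Markers of the second heart field were present in every library, with 9 of 9 tested and a sum from 743 to 1144 normalized counts. Cardiomyocyte markers were present too, with 7 of 8 tested (*Nppa* was at or near 0) and a sum from 745 to 6294, and endothelial markers had 8 of 9 tested and a sum from 414 to 781. The libraries of L49-3 stood apart, with juxta-cardiac field markers (*Tbx5*, *Mab21l2*, *Hand1* and *Tdo2*, of which 3 of 4 were tested) at 55.7 on the left and 51.5 on the right, against 214 to 433 in the other 6 libraries. Some results are therefore also given without that embryo. The sums of all 10 marker lists overlapped between left and right. Of the 5 tested neural tube markers, 2 passed the threshold of the study, defined below, with a lower left side. They were *Sox1* at a log2 fold change of -0.98 and *Pax6* at -0.83 (unadjusted p = 0.0167 and 0.0142 in edgeR). *Rfx4*, *Sox2* and *Nes* did not pass it, at -0.28, -0.08 and -0.01. No marker of the other lists passed it, and 1.42% of all genes tested did so with a lower left side. The part of neural tissue in the side differences of the family was not tested.

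Of the whole family, the members that passed the test of the side were all ligands. *Sema5a*, *Sema3d*, *Sema4b* and *Sema3a* were higher in the left heart field by 1.37-, 1.53-, 1.39- and 1.25-fold, and passed the threshold of the study, by which the fold change reaches 1.2 in either direction and the unadjusted p does not exceed 0.05. The p is that of edgeR's quasi-likelihood test, in which the embryo was a block. It is given below beside the log2 fold change of left over right and its standard error (SE). These were 4 of 24 tested members, or 16.7%, where 3.05% of all 9744 genes tested passed it and 1.63% did so with a higher left side. *Sema3d*, 1 of the 4, entered the tested genes through its left libraries alone, so that the count is a description. In edgeR 0 members were lower on the left by it, as in limma-voom and DESeq2, against 1.42% of all genes in edgeR; no member with a lower left side had an unadjusted p under 0.05. After Benjamini-Hochberg adjustment over all genes 0 members had an adjusted p under 0.05 in edgeR, and 0 in limma-voom and DESeq2, the smallest being 0.987 in edgeR, and 0.0103% of all genes did. At an unadjusted p under 0.05 there were 4 members in edgeR, 2 in limma-voom and 1 in DESeq2, and 4.36% of all genes in edgeR.

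The regions around the starts of these 4 ligand genes are shown because the genes shared a direction between the sides. They are RefSeq promoters of the assembly GRCm38.p6, from 250 bases before to 50 after the transcript start, and all lie on the plus strand. Capitals mark matches on either strand to the GC box GGGCGG, the CCAAT box CCAAT, the TATA box TATAAA and the FOXH1 motif AATCCACA.
Sema3a, chr5:13396534-13396833: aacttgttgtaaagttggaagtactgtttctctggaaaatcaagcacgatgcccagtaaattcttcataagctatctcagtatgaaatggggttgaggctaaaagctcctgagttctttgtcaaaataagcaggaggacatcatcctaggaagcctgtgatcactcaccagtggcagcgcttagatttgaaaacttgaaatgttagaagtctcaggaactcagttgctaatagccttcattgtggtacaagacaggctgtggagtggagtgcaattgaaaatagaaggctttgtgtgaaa
Sema3d, chr5:12382916-12383215: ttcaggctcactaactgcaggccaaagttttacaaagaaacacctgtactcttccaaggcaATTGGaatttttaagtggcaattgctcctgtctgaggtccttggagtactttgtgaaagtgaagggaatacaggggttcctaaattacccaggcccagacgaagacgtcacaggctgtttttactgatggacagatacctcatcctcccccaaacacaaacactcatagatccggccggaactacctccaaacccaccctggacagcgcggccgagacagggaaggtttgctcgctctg
Sema4b, chr7:80186620-80186919: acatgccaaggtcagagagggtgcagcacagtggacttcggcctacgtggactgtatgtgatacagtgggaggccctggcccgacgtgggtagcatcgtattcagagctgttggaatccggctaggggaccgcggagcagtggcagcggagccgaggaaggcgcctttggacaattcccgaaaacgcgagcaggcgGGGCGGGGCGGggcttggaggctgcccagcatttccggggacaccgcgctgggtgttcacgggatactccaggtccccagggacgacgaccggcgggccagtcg
Sema5a, chr15:32244563-32244862: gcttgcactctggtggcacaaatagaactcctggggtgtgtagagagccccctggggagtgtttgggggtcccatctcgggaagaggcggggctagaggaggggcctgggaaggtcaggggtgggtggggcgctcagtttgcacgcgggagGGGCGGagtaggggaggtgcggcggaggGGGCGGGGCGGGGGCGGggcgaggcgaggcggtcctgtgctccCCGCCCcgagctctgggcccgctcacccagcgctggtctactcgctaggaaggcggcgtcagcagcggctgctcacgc
The *Sema5a* region, with 71.3% G and C, held 5 GC boxes, starting at -99, -71, -66, -60 and -28 from the transcript start. That of *Sema4b* held 2 overlapping GC boxes at -54 and -49, and is the one of 2 RefSeq entries nearest to the annotated gene start. In *Sema3d* the capitals mark a CCAAT box at -189 read on the minus strand. The *Sema3a* region, with 41.3% G and C, held none of the motifs, and its transcript start lies 271370 bases inside the gene as GENCODE annotates it. Of the 31 members, 26 had an entry in the RefSeq table. For each of them the 1 region nearest to the annotated gene start was taken. The set of all regions holds every entry, with more than 1 for some genes, so the shares below are of unlike sets. A GC box was present in 20 of these 26 regions and in 35.7% of all 32851, a CCAAT box in 4 and in 37.4%, a TATA box in 0 and in 13.6%, and AATCCACA in 1 (*Sema3e*) and in 0.855%. The median share of G and C was 65% in the family and 52.7% over all regions. The data did not measure binding at any of these letters.

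*Sema5a* (ENSMUSG00000022231, chromosome 15 from 32244810 to 32696341) encodes a membrane-bound class 5 semaphorin with thrombospondin repeats. It had 98.1 left and 76.8 right normalized counts for L29-3, 108 and 75.8 for L43-5, 107 and 91.4 for L46-8, and 107 and 59.8 for L49-3. Every left library was above every right library, and the left libraries lay close together while the right ones spread, with the lowest in L49-3. The mean was 105 ± 4.74 left and 75.9 ± 12.9 right (SD, n = 4 embryos each), with a log2 fold change of 0.46 (SE 0.13, unadjusted p = 0.00483 in edgeR). Without L49-3 the log2 fold change was 0.38 (unadjusted p = 0.0195 in edgeR). *Sema5a* passed the threshold of the study in every alternative fit. Its transcripts share no stretch of at least 100 bases with at least 90% identity with another gene. *Plxnb3*, a receptor known to bind Sema5a, had 0 reads in all 8 libraries, while the 8 other plexins passed the filter. Which plexin Sema5a meets in this tissue was not tested.

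*Sema3d* (ENSMUSG00000040254, chromosome 5 from 12383385 to 12588948) encodes a secreted class 3 semaphorin that is known to guide vessels, among them the pulmonary veins. Its normalized counts were 23.5 left and 13.6 right for L29-3, 22.2 and 19.7 for L43-5, 26.0 and 12.7 for L46-8, and 20.1 and 11.6 for L49-3. All left libraries were above all right libraries, by a narrow margin between the left of L49-3 and the right of L43-5. With library size alone in place of size factors the sides overlapped. The log2 fold change was 0.61 (SE 0.27, unadjusted p = 0.0442 in edgeR). The reads behind these values numbered 7 to 37 per library. The 4 libraries in which *Sema3d* reached 20 normalized counts were the 4 left ones, so it was tested only because its left side was high.

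*Sema4b* (ENSMUSG00000030539, chromosome 7 from 80186841 to 80226527) encodes a membrane-bound class 4 semaphorin. It had 48.6 left and 37.1 right normalized counts for L29-3, 58.7 and 42.2 for L43-5, 37.4 and 19.0 for L46-8, and 49.5 and 44.9 for L49-3. The left was higher in all 4 embryos, but the sides overlapped, the left library of L46-8 being below 2 of the right libraries. Its reads numbered 15 to 90 per library, the fewest being in the right library of L46-8. The mean was 48.6 ± 8.70 left and 35.8 ± 11.6 right (SD, n = 4 embryos each), with a log2 fold change of 0.47 (SE 0.19, unadjusted p = 0.0293 in edgeR). A stretch of up to 183 bases of its transcripts is at least 90% identical to 624 other genes, so reads there could have been assigned elsewhere.

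*Sema3a* (ENSMUSG00000028883, chromosome 5 from 13125414 to 13602565) encodes the secreted ligand of the *Nrp1* receptor complex and a classical repellent of axons. It had 118 left and 65.6 right normalized counts for L29-3, 88.0 and 85.9 for L43-5, 127 and 118 for L46-8, and 138 and 99.7 for L49-3. The left was higher in all 4 embryos, by little in L43-5 and L46-8, and the sides overlapped. The log2 fold change was 0.32 (SE 0.15, unadjusted p = 0.0458 in edgeR), the mean being 118 ± 21.4 left and 92.3 ± 22.1 right (SD, n = 4 embryos each). Much of it lay in L29-3, and without that embryo the log2 fold change was 0.17 (unadjusted p = 0.253 in edgeR).

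Leaving out an embryo moved the number of members past the threshold. Without L29-3 only *Sema5a* remained of the members higher on the left, and *Sema3c* passed it in the other direction, at a log2 fold change of -0.78 (unadjusted p = 0.0407 in edgeR). Without L49-3, 2 members passed, *Sema4b* and *Sema5a*, the log2 fold change was over 0 in 21 members (48.7% of all genes) and the left side lay above the right without overlap in 5, against 5.04% of all genes with 3 embryos. Without L43-5, *Sema4b* lost its call and *Sema3f* gained one (log2 fold change 0.28, unadjusted p = 0.0414 in edgeR). Without L46-8, *Sema4b* and *Sema3d* lost theirs and *Sema6a* gained one (log2 fold change 0.33, unadjusted p = 0.0247 in edgeR). For any 1 gene, the smallest two-sided p that exact sign-flip permutation of 4 pairs can reach is 0.125.

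**Figure D1:**
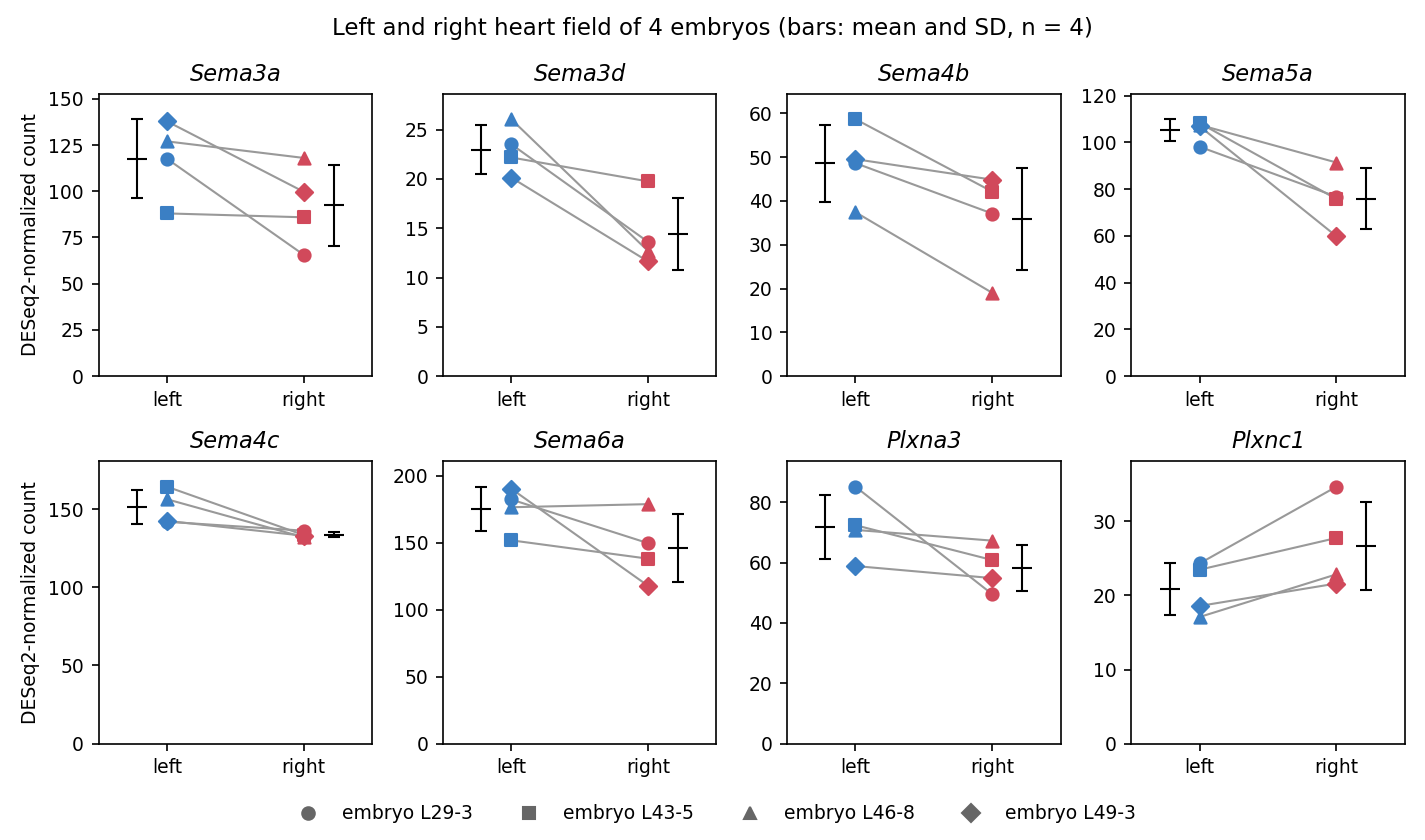
DESeq2-normalized counts (vertical axes, from 0) of 8 members in left (blue) and right (red) libraries, with a line joining the sides of an embryo, a marker shape for each embryo, and the mean and SD of 4 libraries beside the points. Every left point of *Sema5a*, *Sema3d* and *Sema4c* lies above every right point, the lines of *Sema3a*, *Sema4b* and *Plxna3* fall in all 4 embryos with overlapping sides, that of *Sema6a* falls in 3, and *Plxnc1* is higher on the right in all 4.

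Over all members, 19 of 24 had a log2 fold change over 0, where 48.6% of all genes did, and the median log2 fold change was 0.13 against -0.00 over all genes. Semaphorins had a median of 0.21, plexins of 0.06 and the neuropilins of 0.11. In 8 members the left was higher in all 4 embryos, against 6.26% of all genes, and in 1 member, *Plxnc1*, it was lower in all 4, against 6.11%. The sides did not overlap, with the left higher, in 3 members (*Sema5a*, *Sema3d* and *Sema4c*), against 1.51% of all genes, and no member had a non-overlapping lower left side, against 1.01%. *Sema3d* is again among them by way of its left libraries alone. These counts cover the members that passed the filter on low values, and the 7 others were not tested.

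Summed over the members of a family as CPM (reads over a common library size) per kilobase of exon, semaphorin levels were 86.7 left and 68.8 right for L29-3, 76.9 and 73.7 for L43-5, 82.2 and 75.5 for L46-8, and 81.3 and 69.9 for L49-3. The lowest left sum, 76.9, was just above the highest right one, 75.5. The largest parts of the sum were *Sema4c*, *Sema3f* and *Sema6a*, at mean levels of 16.8, 16.3 and 9.90. None of these passed the threshold of the study with all 4 embryos, and the sums were not tested. The plexin sum ranged from 95.6 to 118 and had the higher left side in 4 of 4 embryos with overlapping sides, and the neuropilin sum ranged from 22.8 to 46.9 and had it in 2 of 4.

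**Figure D2:**
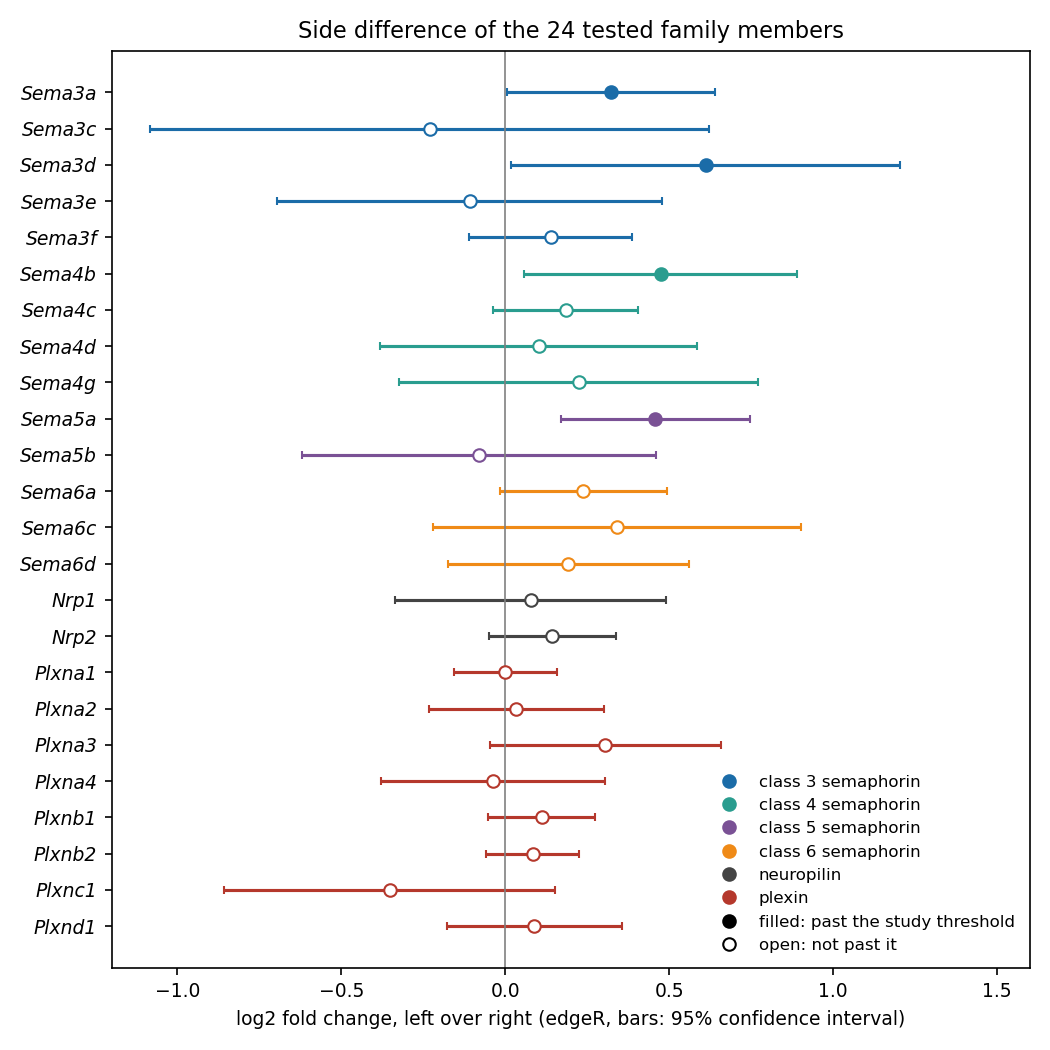
Log2 fold change, left over right, from edgeR (horizontal axis) for the 24 tested members, coloured by class, with 95% confidence intervals and filled points for the 4 members past the threshold of the study. Points lie to the right of 0 for 19 members, and the intervals of *Sema3a*, *Sema3d*, *Sema4b* and *Sema5a* are the ones that leave out 0.

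Among the other class 3 ligands no side difference passed the test with all 4 embryos. *Sema3f*, the ligand of *Nrp2*, had 179 left and 156 right normalized counts for L29-3, 145 and 164 for L43-5, 173 and 146 for L46-8, and 166 and 123 for L49-3. It had the higher left side in 3 of 4 embryos, with a log2 fold change of 0.14 (SE 0.11, unadjusted p = 0.247 in edgeR). *Sema3c*, known for its part in septation of the outflow tract, ranged from 13.0 to 33.2 normalized counts on the left and from 11.1 to 41.5 on the right. Embryos disagreed in its direction, at 1.51 in L29-3 and -1.52 in L49-3 as the log2 ratio of left to right, and the log2 fold change was -0.23 with a 95% confidence interval from -1.08 to 0.62. Without L49-3 it was 0.11. *Sema3e*, the ligand of *Plxnd1*, also had opposite directions, with log2 ratios from -1.24 in L49-3 to 0.74 in L43-5. *Sema3b* and *Sema3g* stayed under the filter, with 4.86 to 15.5 and 8.67 to 22.8 normalized counts.

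All 4 tested class 4 ligands had a log2 fold change over 0, of which *Sema4b* passed the test. *Sema4c*, a ligand of *Plxnb2*, had 142 left and 136 right normalized counts for L29-3, 164 and 133 for L43-5, 156 and 132 for L46-8, and 142 and 133 for L49-3. The right libraries were nearly alike and all lay below the left ones. The difference was small, with a log2 fold change of 0.18 (SE 0.10, unadjusted p = 0.0952 in edgeR). *Sema4d*, the ligand of *Plxnb1*, and *Sema4g* had log2 fold changes of 0.10 and 0.22 with unadjusted p of 0.653 and 0.388 in edgeR. *Sema4a* and *Sema4f* had at most 5.22 and 4.95 normalized counts in any library and were not tested.

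The membrane-bound class 6 ligands had log2 fold changes of 0.24 in *Sema6a*, 0.34 in *Sema6c* and 0.19 in *Sema6d*, and none passed the test with all 4 embryos. *Sema6a*, a ligand of the receptors *Plxna2* and *Plxna4*, had 182 left and 150 right normalized counts for L29-3, 152 and 138 for L43-5, 177 and 179 for L46-8, and 190 and 118 for L49-3. The sides overlapped, and L49-3 differed most (unadjusted p = 0.0633 in edgeR). *Sema6c* had an unadjusted p of 0.211 in edgeR, and its left value in L29-3, 39.7 normalized counts, was its highest. *Sema5b*, the other class 5 member, had a log2 fold change of -0.08 with a 95% confidence interval from -0.62 to 0.46. *Sema6b* and the lipid-anchored *Sema7a* had at most 11.6 and 7.30 normalized counts and were not tested.

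No plexin passed the test, and the intervals of *Plxnb2* and *Plxna1* were narrower than that of *Plxnd1*. *Plxnb2*, the receptor of *Sema4c*, had 535 left and 529 right normalized counts for L29-3, 578 and 518 for L43-5, 537 and 516 for L46-8, and 497 and 462 for L49-3. It had the higher left side in all 4 embryos by a small margin, with a log2 fold change of 0.08 and a 95% confidence interval from -0.06 to 0.23. *Plxna1*, which takes signals of class 3 and class 6 semaphorins, had 366 left and 370 right normalized counts for L29-3, 357 and 385 for L43-5, 395 and 367 for L46-8, and 395 and 381 for L49-3. Its sides were mixed and its 95% confidence interval ran from -0.16 to 0.16 on the log2 scale. *Plxnd1*, an endothelial receptor in the early embryo, had 257 and 259 normalized counts for L29-3, 220 and 263 for L43-5, 267 and 237 for L46-8, and 234 and 145 for L49-3, left first. The right library of L49-3 was the lowest. The endothelial marker sum was also lowest in that library, at 414 normalized counts against 495 to 781 in the others. Its markers disagreed for L49-3, with log2 ratios of left to right of 0.83 in *Cdh5*, 1.07 in *Tek* and 0.78 in *Sox17*. The ratios were -0.64 in *Pecam1*, -0.36 in *Plvap*, -0.66 in *Esam* and -0.42 in *Emcn*, and near 0 in *Tie1* and *Egfl7*. The part of endothelium in the level of *Plxnd1* was not tested. The log2 fold change of *Plxnd1* was 0.09 with a 95% confidence interval from -0.18 to 0.36.

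The remaining plexins were less abundant or varied more. *Plxna3*, which pairs with *Nrp2*, had the higher left side in all 4 embryos with 58.8 to 85.1 normalized counts on the left and 49.5 to 67.3 on the right (log2 fold change 0.31, unadjusted p = 0.0824 in edgeR). *Plxnb1* had the higher left side in all 4 embryos too, with a log2 fold change of 0.11 (unadjusted p = 0.16 in edgeR). *Plxnc1*, the receptor of Sema7a, had 17.1 to 24.3 normalized counts on the left and 21.6 to 34.7 on the right, and a log2 fold change of -0.35 (SE 0.23, unadjusted p = 0.155 in edgeR). *Plxna2* and *Plxna4* had log2 fold changes of 0.03 and -0.04. *Plxnb3* was not detected, and 0 reads allow up to 3 reads in a library, or 0.864 to 2.71 normalized CPM, a limit that covers counting error only.

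Neither neuropilin passed the test of the side, and both had an unadjusted p under 0.05 for the embryo. *Nrp1*, co-receptor of Sema3a and of VEGF, had 349 left and 493 right normalized counts for L29-3, 450 and 388 for L43-5, 522 and 266 for L46-8, and 158 and 234 for L49-3. Embryos went in opposite directions, and both libraries of L49-3 were below the other 6. The log2 fold change was 0.08 with a 95% confidence interval from -0.33 to 0.49. *Nrp2*, co-receptor of Sema3f, had 360 and 394 normalized counts for L29-3, 404 and 308 for L43-5, 399 and 369 for L46-8, and 308 and 269 for L49-3, left first. Its left side was higher in 3 of 4 embryos, with a log2 fold change of 0.14 and a 95% confidence interval from -0.05 to 0.34.

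The direction of *Nrp1* is given here beside that of tissue markers. Its log2 ratio of left to right was -0.49 for L29-3, 0.21 for L43-5, 0.96 for L46-8 and -0.58 for L49-3. The summed juxta-cardiac markers had ratios of -0.78, 0.07, 1.01 and 0.11, and the cardiomyocyte markers of 0.11, -0.51, 0.91 and -1.75, in the same order of embryos. Second heart field markers had ratios of -0.10, -0.49, 0.26 and -0.10. *Nrp1* shared the direction of the juxta-cardiac sum in every embryo but L49-3 and that of the second heart field sum in every embryo but L43-5. It shared that of the cardiomyocyte sum for L46-8 and L49-3 alone. Within the juxta-cardiac list the tested markers differed for L43-5, with ratios of -0.63 in *Tbx5*, -0.18 in *Mab21l2* and 0.68 in *Hand1*. They differed for L49-3 too, at 0.004, 0.38 and -0.28 in the same order, *Mab21l2* having 3 left and 2 right reads. The untested *Tdo2* had 7.74 left and 0 right normalized counts for L49-3, from 5 and 0 reads. That gap was larger than the one between the sums, 55.7 left and 51.5 right, so the direction of the sum for L49-3 rested on *Tdo2*. Endothelial cells also express *Nrp1*, and their markers were at 495 and 414 for L49-3 and at 664 to 781 in the other libraries. The endothelial sum had ratios of -0.05, -0.12, 0.14 and 0.26, and shared the direction of *Nrp1* for L29-3 and L46-8 alone. The part of any of these tissues in the level of *Nrp1* was not tested.

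The embryo term was tested in edgeR with the side as the other term, so the spread is that between the sides of an embryo, and embryo, exact stage and dissection cannot be told apart. By this test 0 members differed among embryos at an adjusted p under 0.05 (0 in limma-voom), against 0.174% of all genes. At an unadjusted p under 0.05 there were 4 members in edgeR and 3 in limma-voom, against 9.99% of all genes in edgeR. They were *Sema6d*, *Nrp1*, *Plxna4* and *Nrp2*, with adjusted p of 0.259, 0.275, 0.422 and 0.461 in edgeR. Without L49-3 the unadjusted p was under 0.05 in 1 member. Without L46-8 *Nrp1* had an adjusted p of 0.00956 in edgeR, the lowest over all alternatives, of which the highest was 0.993. In that fit 236 of all genes had an adjusted p under 0.05, against 17 with all 4 embryos. In 5 members (*Sema6d*, *Nrp1*, *Plxna2*, *Plxna4* and *Plxnb2*, named after their values were seen) both libraries of L49-3 were below the other 6, against 9.44% of all genes, and in 0 members they were above, against 7.83%.

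*Sema6d*, a ligand of *Plxna1* known from cardiac morphogenesis, had the lowest p of the embryo term. It had 70.5 left and 61.9 right normalized counts for L29-3, 52.8 and 58.2 for L43-5, 76.5 and 57.1 for L46-8, and 37.2 and 24.9 for L49-3. The libraries of L49-3 were the lowest pair by far, and the other embryos overlapped. *Plxna4* had 38.7 and 61.5 normalized counts in L49-3 and 66.5 to 88.0 in the other libraries.

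**Figure D3:**
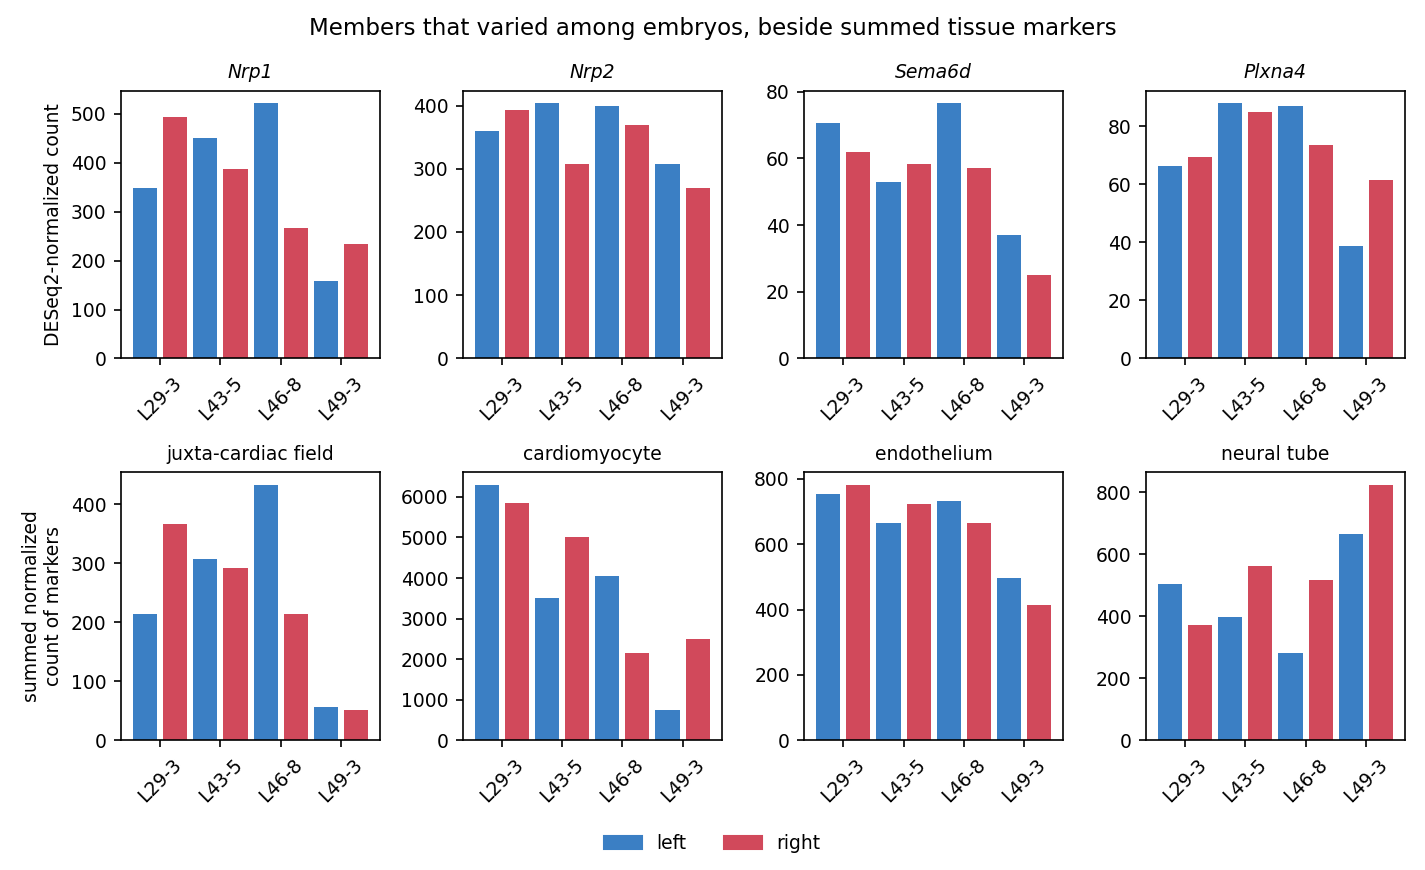
Upper panels show DESeq2-normalized counts of *Nrp1*, *Nrp2*, *Sema6d* and *Plxna4*, and lower panels the summed normalized counts of 4 marker lists, in the left (blue) and right (red) library of each embryo, all axes starting at 0. The libraries of L49-3 hold the lowest values of *Nrp1*, *Sema6d* and *Plxna4* and of juxta-cardiac and endothelial markers, and the highest neural tube sums, 664 and 823.

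**Figure D4:**
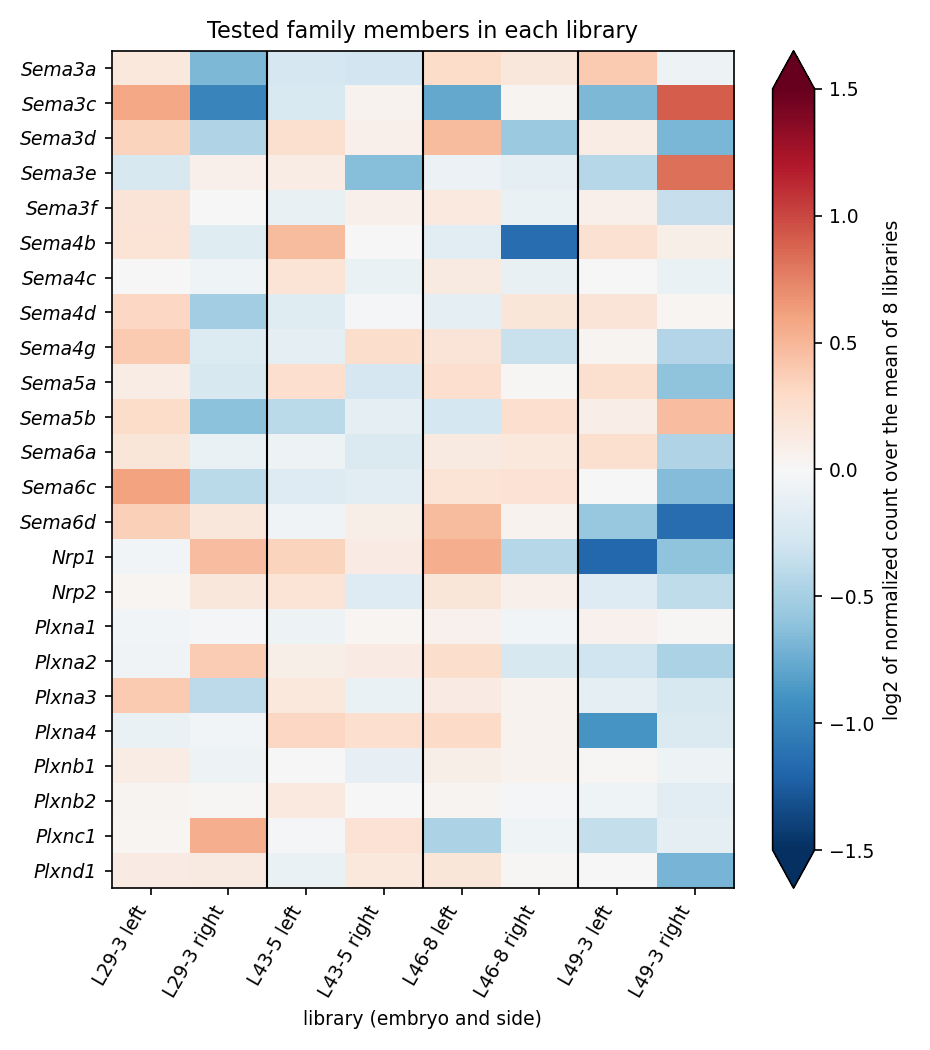
Log2 of the normalized count of each tested member over its mean in 8 libraries (colour, red above and blue below), with members as rows and libraries as columns grouped by embryo. The blue cells of *Nrp1* and *Sema6d* in both L49-3 columns, the mixed row of *Sema3c* and the pale row of *Plxna1* stand for the values given above.

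Levels were compared between members as CPM per kilobase of exon, a scale that allows for gene length. The members with the 4 highest means were receptors. *Plxnb2* was the highest member, with a mean level of 36.5 ± 2.30 (SD over 8 libraries), and *Plxna1* followed with 22.5 ± 0.813. Their order held in 8 of 8 libraries. Among the receptors, *Nrp1* came next with 19.7 ± 7.14, then *Plxnd1* with 17.4 ± 2.95, *Plxnb1* with 16.2 ± 0.964 and *Nrp2* with 16.0 ± 2.28. The ranges of these 4 overlapped, *Plxnd1* being above *Plxnb1* in 6 of 8 libraries and *Nrp1* above *Nrp2* in 6 of 8. *Plxna2*, *Plxna3*, *Plxna4* and *Plxnc1* were lower, at 9.11, 4.46, 2.73 and 1.54, each above the next in 8 of 8 libraries.

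Of the ligands, *Sema4c* (16.8 ± 1.37) and *Sema3f* (16.3 ± 1.88) had the highest levels and exchanged places, *Sema4c* being above in 4 of 8 libraries. Both means lay between those of *Plxnd1* and *Plxnb1*. *Sema6a* came next at 9.90 ± 1.55 and lay below *Sema3f* and above *Sema3a* in 8 of 8 libraries. *Sema3a* (4.09) and *Sema4b* (4.04) led a long series down to *Sema3c* at 1.68 and *Sema3d* at 1.18, in which no ligand was above the next in all 8 libraries. The ligands below them went from *Sema3b* at 1.11 to *Sema4f* at 0.244. *Sema5a*, with a mean level of 2.62, was the tenth ligand. With the longest annotated transcript as length in place of all exons, the order at the top changed, with *Nrp1* first at 53.0, *Plxnb2* at 43.4 and *Nrp2* at 28.3, because *Nrp1* has 9785 bases of exon but 3645 in its longest transcript, and *Sema3f* was then above *Sema4c* in all libraries.

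**Figure D5:**
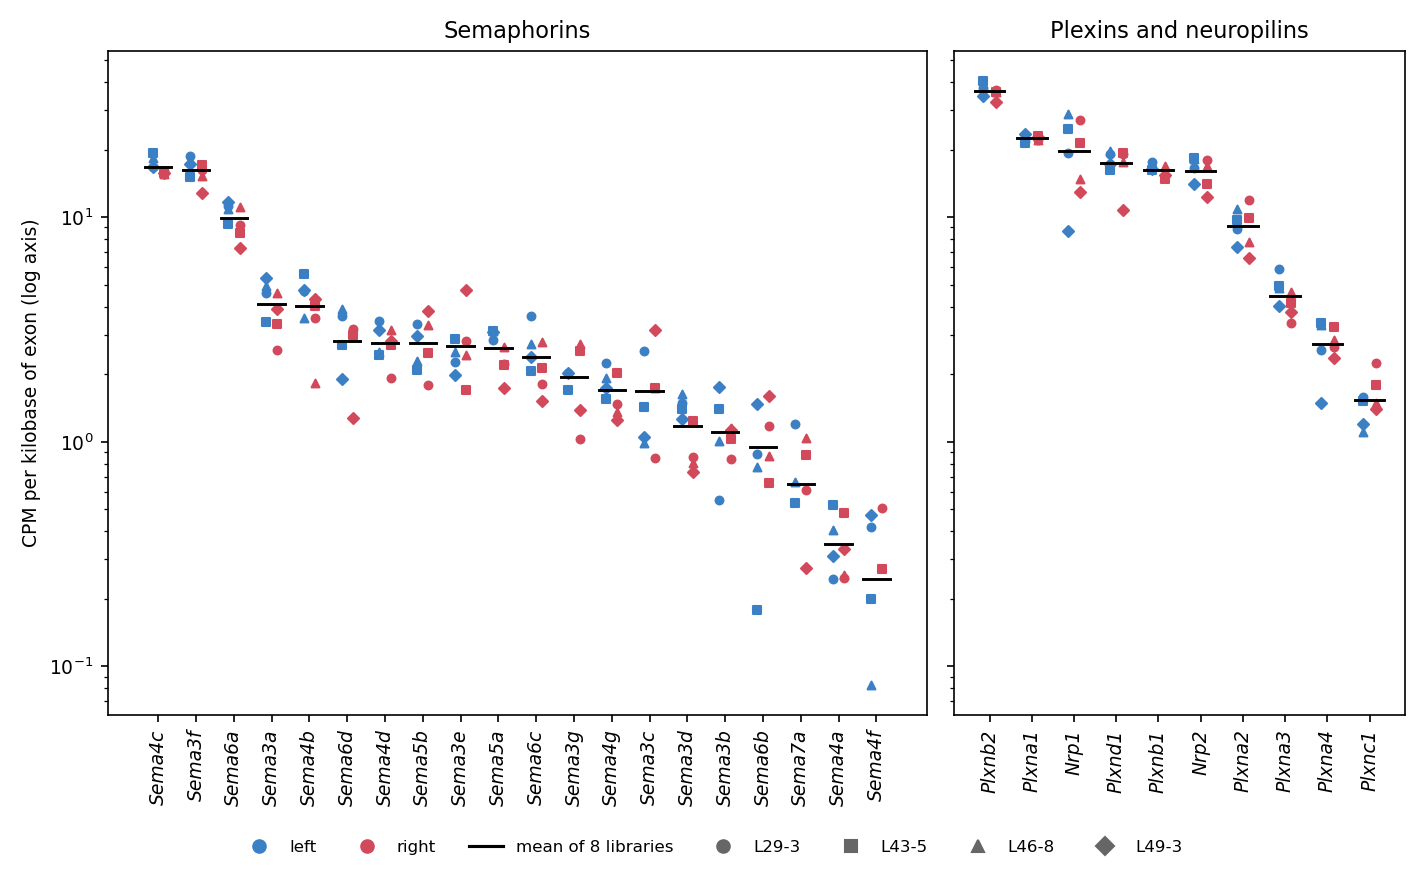
CPM per kilobase of exon (log axis) for each member in each library, left (blue) and right (red), with a marker shape for each embryo and a bar at the mean of 8 libraries, members being ordered by that mean. Libraries without a read and *Plxnb3*, which had none, cannot be drawn on this axis. *Plxnb2*, *Plxna1* and *Nrp1* are the highest receptors, *Sema4c* and *Sema3f* the highest ligands, and the points of *Nrp1* are more spread than those of *Plxna1*.

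The partners of the family were examined as 3 lists with 66 genes, of which 47 were tested. Their log2 fold changes were over 0 in 29 and under 0 in 18, with a median of 0.04. By the threshold of the study 1 was higher on the left (1.63% of all genes) and 1 lower (1.42% of all genes). Of 18 co-receptors and partner receptors 9 were tested, 5 over and 4 under 0 with a median of 0.04, of 8 VEGF ligands and receptors 6, 4 over and 2 under 0 with a median of 0.19, and of 40 intracellular effectors 32, 20 over and 12 under 0 with a median of 0.03. The smallest adjusted p of a partner was 0.987 in edgeR, and 7 had an unadjusted p under 0.05, against 4.36% of all genes.

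*Dpysl3*, a collapsin response mediator protein that links semaphorin signals to the cytoskeleton, was higher on the left. It had 230 left and 229 right normalized counts for L29-3, 279 and 224 for L43-5, 261 and 176 for L46-8, and 271 and 161 for L49-3. The left libraries were all above the right ones, although in L29-3 the sides were nearly equal. The log2 fold change was 0.38 (SE 0.11, unadjusted p = 0.00456 in edgeR).

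*Ptprz1*, a receptor phosphatase of neural progenitors and glia, was the partner with a lower left side, at a log2 fold change of -0.78 (SE 0.29, unadjusted p = 0.0188 in edgeR). Its normalized counts were 21.1 left and 16.1 right for L29-3, 18.9 and 42.2 for L43-5, 10.6 and 21.6 for L46-8, and 26.3 and 56.5 for L49-3. The sides overlapped and L29-3 went the other way. The summed neural tube markers, 5 of 7 tested and from 280 to 823 normalized counts, had log2 ratios of left to right of 0.43, -0.49, -0.88 and -0.31 in the same order of embryos, against 0.38, -1.12, -0.98 and -1.08 for *Ptprz1*, and their part in it was not tested.

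The other 5 partners with an unadjusted p under 0.05 had a fold change under 1.2. Of the VEGF group, *Kdr*, the main VEGF receptor of endothelium, had a log2 fold change of 0.20 and had the higher left side in 4 of 4 embryos, whereas *Vegfa*, its ligand, had -0.21 and had it in 0 of 4 (unadjusted p = 0.0307 and 0.0431 in edgeR). *Farp1*, an exchange factor that binds plexins, had a log2 fold change of 0.25 with sides that did not overlap, *Ptk7* of 0.17 and *Sh3bp1* of -0.23 (unadjusted p = 0.00866, 0.0385 and 0.04 in edgeR).

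Some values are limited by how reads could be assigned. Exons of *Sema4c*, *Plxna1*, *Plxnb1* and *Plxna4* overlap a transcript on the opposite strand over 334, 970, 257 and 110 bases, and these neighbours had 24, 19, 26 and 0 reads in all libraries together. No member had a stretch of at least 100 bases with at least 90% identity to another member, and 12 had one with some other gene.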

How the data were processed

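RNA was sequenced from paired left and right heart fields of 4 embryos. The deposited values are raw counts per gene, which the authors made by aligning reads to GRCm38 with Hisat2, excluding duplicates and counting with featureCounts (versions and the use of strand are not given in the sources used here). Excluding duplicates can understate abundant genes, and it sets the depth of 1147446 to 3520753 counts per library, on which intervals and limits rest for counting error only.

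Symbols, positions and exon lengths came from GENCODE vM21 (GRCm38). Genes were kept where 4 or more libraries reached a DESeq2-normalized count of 20, and were tested with edgeR 4.0.16 in R 4.3.3 (TMM, quasi-likelihood test, embryo as a block, Benjamini-Hochberg over 9744 genes), and the methods were tested on simulated data. Levels are TMM-normalized CPM per kilobase of exon. Per-embryo ratios use CPM with a pseudocount of 0.5. DESeq2 1.42.0, limma-voom (limma 3.58.1), other normalizations, other filters and leaving out each embryo were alternatives.

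Both sides are of the same animal, which pairs them. Their deviations from the side means correlated at 0.165 for L29-3, 0.19 for L43-5, -0.02 for L46-8 and 0.437 for L49-3. Between a left and a right side of different embryos the correlations ran from -0.389 to 0.255. A same-embryo value thus stood above that range for L49-3 alone. Without the replicate block 2 members passed the threshold of the study in place of 4. Values are given in every library for members past that threshold, for both neuropilins, for the 3 semaphorins and 3 plexins of highest level and for partners past the threshold, the rest by count and range, with *Sema6d* added after its values were seen. Members, lists and rules were chosen with earlier results of these data known.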

Additional observations from a re-analysis of the deposited data

Results flagged for a closer look

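Of 52 groups of 4 libraries (a gene on a side), 2 held a library that stood apart from the other 3 by Dixon's criterion at the 95% level. The gap to the nearest library is compared with the whole range, and chance marks about 1 in 20 groups. The left *Sema5a* value of L29-3, 98.1 normalized counts, lay below 107 to 108 in the other left libraries and still above every right library. The right *Sema6d* value of L49-3, 24.9 normalized counts, lay below 57.1 to 61.9 in the other right libraries.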

How the results depend on the processing

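The number of members past the threshold with a higher left side, 4, was 1 with DESeq2 (*Sema5a*), 2 with limma-voom (*Sema4b* and *Sema5a*), 2 in edgeR with no replicate block (*Sema3d* and *Sema5a*) and 1 to 4 when an embryo was left out (*Sema5a* without L29-3, *Sema3a*, *Sema3d*, *Sema3f* and *Sema5a* without L43-5, *Sema3a*, *Sema5a* and *Sema6a* without L46-8, *Sema4b* and *Sema5a* without L49-3). The same 4 passed with DESeq2 size factors, library size alone or no filter, and 3 of them with at least 10 counts in every library, where *Sema3d* was not tested. The number lower on the left was 0 to 1 when an embryo was left out and 0 in the other settings, and no member had an adjusted p under 0.05 in any of these settings. The number with sides that do not overlap, 3, was 2 with library size alone and 3 to 6 when an embryo was left out, where 4.28% to 5.04% of all genes did so against 1.51% with 4 embryos, and the number with a log2 fold change over 0, 19, ranged from 17 to 21; both sets of alternatives were chosen after seeing the data. Partners higher on the left, 1, were 2 with library size alone, 3 with no filter and 1 to 4 when an embryo was left out. Partners lower on the left, 1, were 2 with no filter, 0 with DESeq2 and 0 to 3 when an embryo was left out. Members that differed among embryos, 0, were 0 to 1 when an embryo was left out (*Nrp1* without L46-8, where 2.42% of all genes passed against 0.174%). Of the alternatives for single log2 fold changes, 244 kept their side of the threshold, 15 lost the call and 3 gained it, and 14 changed sign, none of them a called value. By the same threshold 159 of all genes had a higher and 138 a lower left side, against 32 and 27 with DESeq2 and 362 and 325 with no filter. The causes of these changes were not tested. *Sema3d*, *Sema3c* and *Plxnc1* rest on 7 to 52 reads per library. Counts were also low in *Sema6c* with 10 to 49, *Sema4g* with 12 to 61 and the called *Sema4b* with 15 to 90.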
